A study of Rattus norvegicus with 8 samples.

Results

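The 7 genes that encode the side chain and conjugation enzymes of bile acid synthesis were followed in the livers of 8 rats. The set was chosen by gene symbol, with earlier results of these data known. It holds 5 side chain genes (Slc27a2, Amacr, Acox2, Hsd17b4 and Scp2) and 2 conjugation genes (Slc27a5 and Baat), out of 14213 genes with a probe set annotated to 1 gene alone. Each of the 7 was measured, by 8 such probe sets in all, and 7 of the 8 gave values that differed between arrays. The livers came from male Sprague-Dawley rats aged 7 weeks. For 2 weeks 4 of them ate a diet with 10 g cholesterol, 5 g cholic acid and 10 g freeze-dried live Lactobacillus brevis 119-2 per kg, and 4 control rats ate the same cholesterol and cholic acid diet without the bacterium. One label of the control arrays gives only the CRF-1 base diet, without the cholesterol and cholic acid that the series' design text adds to it, and the groups here follow the design text. Both groups therefore carried the bile acid load, and a diet free of it was not analysed here.

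The liver makes bile acids by hydroxylating the sterol ring and then shortening the side chain of cholesterol inside peroxisomes, the organelles that also oxidise very long and branched fatty acids. There the intermediate is held as a coenzyme A thioester, turned to the right stereoisomer, oxidised, hydrated, oxidised again and cleaved. The finished bile acid thioester is then joined to taurine or glycine, and bile acids that return from the gut without their amino acid are activated with coenzyme A again before they are rejoined. Cholic acid in the feed enters at that last loop.

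The measure is the log2 signal of a probe set on an Affymetrix 3′ expression array, with 1 array per rat, as normalized and deposited by the authors. A difference is L. brevis minus control, so that a difference of 1 is a doubling. Of 31042 probe sets 6323 (20.4%) differed by more than 0.01 log2 between any of the 8 arrays and are called varying. The other 24719 held 1 value on all arrays to within that limit, so that no difference between diets can be read from them. Array medians lay between 6.61 and 6.63. Since most probe sets held 1 value, this closeness of the medians does not show how alike the arrays were. Over varying probe sets, differences between arrays of the same diet had an SD of 0.401 to 0.817. Markers fixed for hepatocytes were bright in every liver, with a mean log2 signal over the 7 varying ones of 12.58 to 12.87 in L. brevis livers and 12.47 to 12.78 in control livers. All 5 measured lymphocyte markers held 1 value throughout. Skeletal muscle markers Acta1 and Ckm stood out in L. brevis rat 2. Acta1 was 12.45 there, against 5.29 to 5.48 in other L. brevis rats and 5.08 to 5.54 in controls. Ckm was 7.78 there, against 6.11 to 6.49 in other L. brevis rats and 6.18 to 6.37 in controls. Actn3 spanned 0.168 over the 8 arrays, and the other 3 of 6 measured held 1 value. The erythroid marker Hbb was also highest in that rat, at 14.31 against at most 12.93 in controls. Endothelial markers stood lower in L. brevis livers at all 6 varying ones of 8 measured. Their mean log2 signal was 8.38 to 8.57 in L. brevis livers and 8.66 to 9.28 in control livers. Kupffer cell markers stood higher at 6 of 7 varying ones (8.88 to 9.27 in L. brevis livers and 8.69 to 9.16 in control livers). Of these 6, Clec4f (+0.01) and C1qc (+0.04) hardly differed. Among all 3806 genes at a varying probe set, 2207 were lower and 1599 higher. The part of these cell types in the results below was not tested.

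The conjugation genes stood in opposite directions between the diets, while for 4 of the 5 side chain genes the interval of the difference included 0, Hsd17b4 being the exception. Slc27a5 signal was lower in all 4 L. brevis livers than in any control liver, and Baat signal was higher in all 4. Neither difference passed the test adjusted over all probe sets. In whole liver, fewer cells of a type and less RNA per cell cannot be told apart.

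Slc27a5 encodes the bile acid coenzyme A ligase of the hepatocyte endoplasmic reticulum, which activates bile acids before conjugation. Its log2 signal was 12.14, 12.11, 11.76 and 11.67 in L. brevis rats 1 to 4, against 12.45, 12.86, 12.61 and 12.36 in control rats 1 to 4. The groups did not overlap, with 0.22 between the highest L. brevis rat and the lowest control rat, and L. brevis rats 3 and 4 stood lowest. The means were 11.92 ± 0.24 in L. brevis livers and 12.57 ± 0.22 in control livers (SD, n = 4 each). The difference was -0.65 (SE 0.16, 95% interval -1.04 to -0.26), or 1.57-fold lower in L. brevis livers. It had an unadjusted p of 0.00626 and an adjusted p of 0.323 by limma, and 0.116 when varying probe sets alone were fitted. The exact permutation test over the 70 assignments of the rats gave a two-sided p of 0.0286, the smallest that 4 against 4 allows. Groups of 4 that do not overlap always give this p.

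Baat encodes bile acid-CoA:amino acid N-acyltransferase, which joins the activated bile acid to taurine or glycine. Its log2 signal was 12.81, 12.79, 13.02 and 13.04 in L. brevis rats 1 to 4, against 12.39, 12.71, 12.58 and 12.35 in control rats 1 to 4. Here too the groups did not overlap, although only 0.08 lay between the lowest L. brevis rat and the highest control rat. The means were 12.91 ± 0.14 in L. brevis livers and 12.51 ± 0.17 in control livers (SD, n = 4 each). The difference was +0.41 (SE 0.11, 95% interval 0.15 to 0.67), or 1.33-fold higher in L. brevis livers. The unadjusted p was 0.00831 and the adjusted p 0.347 by limma, with 0.125 over varying probe sets alone and an exact two-sided permutation p of 0.0286.

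**Figure D1:**
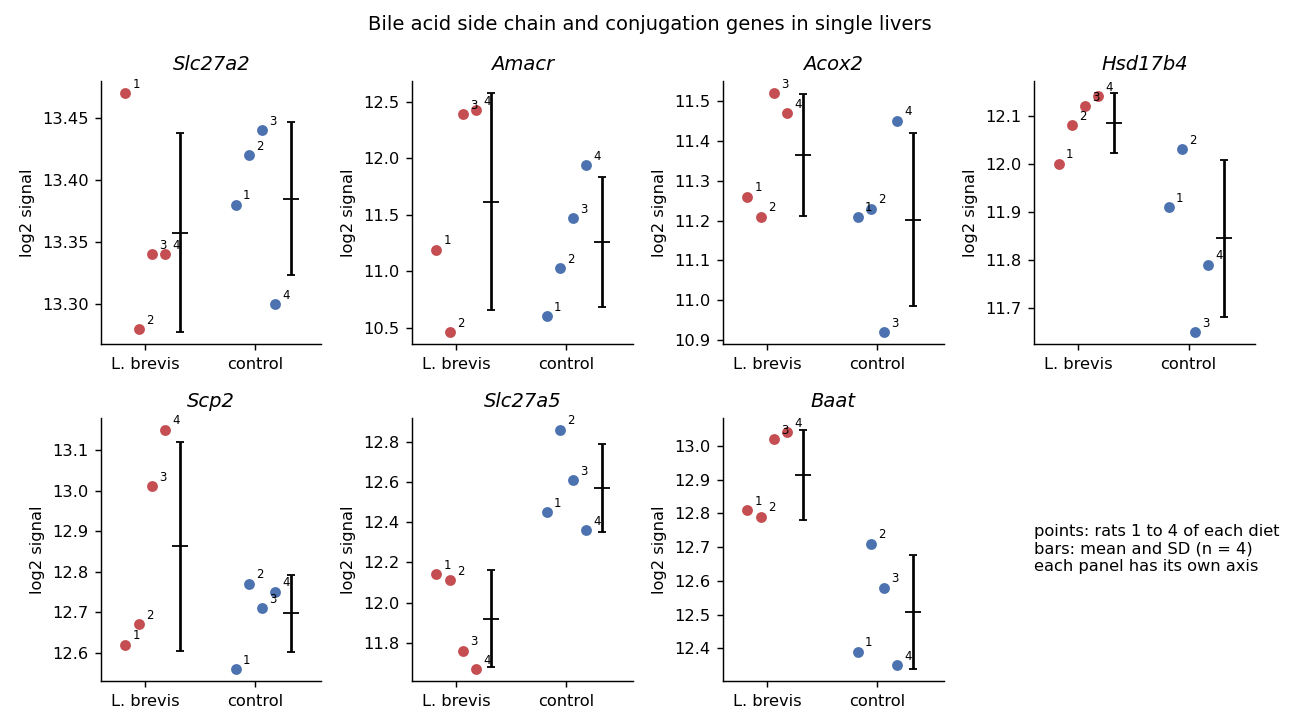
Log2 signal of the 7 genes in each liver, with L. brevis rats in red at the left of each panel and control rats in blue at the right, numbered 1 to 4. Black bars give mean and SD (n = 4), and each panel has its own axis. Only Slc27a5 and Baat have groups that do not overlap, in opposite directions, and Amacr has the widest spread within a diet.

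The pair also behaved differently within each diet. In control rats the order of the 4 livers was the same for both genes, with rat 2 highest, then rats 3, 1 and 4. Slc27a5 spanned 0.50 log2 and Baat 0.36 log2 over those 4 rats. Taking each rat's deviation from the control mean, the Baat deviation minus the Slc27a5 deviation was 0.00, -0.09, 0.04 and 0.05 in control rats 1 to 4, a range of 0.14. In L. brevis rats 1 to 4 the same quantity was 0.73, 0.74, 1.32 and 1.43. Each L. brevis rat was thus at least 0.68 above every control rat in it, and the mean of 1.06 ± 0.37 in L. brevis livers, against 0.00 ± 0.06 in control livers (SD, n = 4 each), corresponds to a 2.08-fold higher ratio of Baat to Slc27a5 signal relative to control livers. Within the L. brevis group rats 4 and 3 were lowest for Slc27a5 and highest for Baat, while rat 1 was slightly above rat 2 for both genes. No test is given for this quantity, since both genes were known to differ before it was formed.

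**Figure D2:**
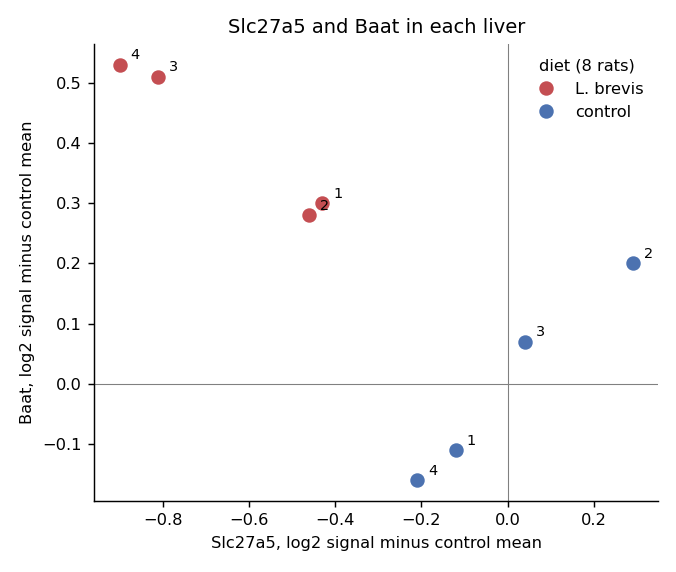
Each point is 1 of the 8 livers, with Slc27a5 log2 signal minus the control mean on the x axis and Baat log2 signal minus the control mean on the y axis. The 4 control livers (blue) rise together from rat 4 (-0.21, -0.16) to rat 2 (0.29, 0.20), and the 4 L. brevis livers (red) lie apart at the upper left, with rats 3 and 4 farthest out.

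A measure of RNA quality moved with the same livers. The array carries control probe sets at both ends of the Gapdh transcript, and the 5′ signal minus the 3′ signal falls when RNA is degraded or copied incompletely. This value was -2.20, -1.30, -0.94 and -0.68 in L. brevis rats 1 to 4, against -2.89, -1.83, -2.93 and -1.98 in control rats 1 to 4. L. brevis rats 2 to 4 were above every control rat, and L. brevis rat 1, whose Baat deviation minus Slc27a5 deviation was 0.73, lay inside the control range. The same difference at the beta-actin control probe sets ran from -3.50 to -1.86 in L. brevis livers and from -3.89 to -3.00 in control livers. With the Gapdh value as a covariate the difference was -0.51 for Slc27a5 (unadjusted p = 0.0818 by limma) and +0.27 for Baat (unadjusted p = 0.12 by limma). Without L. brevis rats 3 and 4 it was -0.45 for Slc27a5 and +0.29 for Baat. The part of RNA quality in the shift of the pair was not tested.

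**Figure D3:**
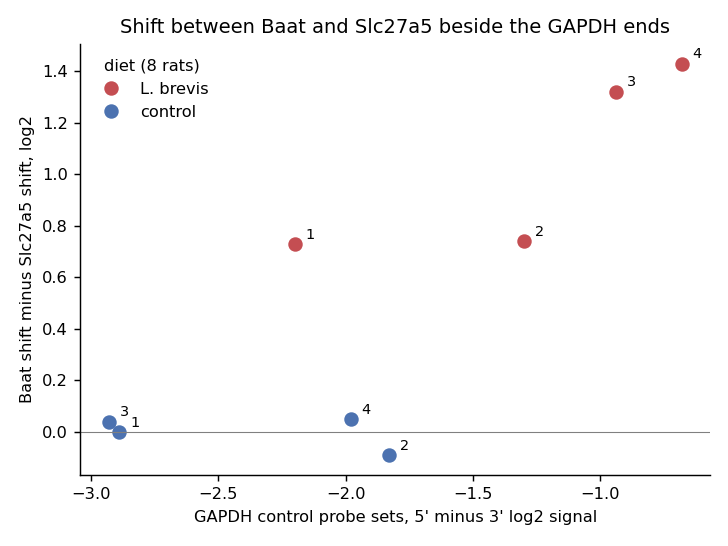
The Baat deviation minus the Slc27a5 deviation (log2, y axis) in each of the 8 livers beside the Gapdh 5′ minus 3′ log2 signal (x axis). Control livers (blue) stay between -0.09 and 0.05 over an x range of -2.93 to -1.83. The L. brevis livers (red) lie between 0.73 and 1.43, and L. brevis rat 1 falls inside the x range of the control livers.

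The promoter windows of these 2 genes are shown because their signals stood in opposite directions, together with that of Hsd17b4, the next gene by unadjusted p. Each window runs from 250 bases before to 50 bases after the start of the gene, 5′ to 3′ on the gene's strand (RefSeq, GRCr8). All 7 genes had a window. Capitals mark matches to any of 9 short motifs searched on both strands.
Slc27a5, chr1:82699286-82699585, minus strand: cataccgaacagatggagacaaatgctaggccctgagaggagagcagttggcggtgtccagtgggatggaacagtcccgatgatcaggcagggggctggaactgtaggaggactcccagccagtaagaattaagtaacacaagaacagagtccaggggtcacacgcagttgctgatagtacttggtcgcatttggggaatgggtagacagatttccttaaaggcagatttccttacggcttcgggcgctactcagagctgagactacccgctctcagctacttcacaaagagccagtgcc
Baat, chr5:68656088-68656387, minus strand: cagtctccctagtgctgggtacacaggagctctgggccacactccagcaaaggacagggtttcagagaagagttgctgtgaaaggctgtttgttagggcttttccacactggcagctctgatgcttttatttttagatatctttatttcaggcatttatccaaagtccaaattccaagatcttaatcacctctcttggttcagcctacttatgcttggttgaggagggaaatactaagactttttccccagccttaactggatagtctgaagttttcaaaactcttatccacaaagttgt
Hsd17b4, chr18:45515177-45515476, plus strand: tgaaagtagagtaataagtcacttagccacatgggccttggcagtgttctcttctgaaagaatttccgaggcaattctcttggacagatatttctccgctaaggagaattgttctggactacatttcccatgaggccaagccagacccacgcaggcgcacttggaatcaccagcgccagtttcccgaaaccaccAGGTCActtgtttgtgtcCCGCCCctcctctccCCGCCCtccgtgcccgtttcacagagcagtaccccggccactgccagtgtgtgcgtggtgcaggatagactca
In these letters Slc27a5 and Baat held none of the 9 motifs. Hsd17b4 held the nuclear receptor site AGGTCA and, in 2 places on the opposite strand, the GC box GGGCGG. The AGGTCA site was also found in the windows of Amacr and Slc27a2, so 3 of the 7 had it, against 16.2% of 33469 windows of the same length. The GC box occurred in Amacr, Scp2 and Hsd17b4 (33.1% of all windows) and CCAAT in Acox2 alone (37.5%). None of the 7 windows held TATAAA (14.2% of all windows), CACGTG (6.42%), TGTTTAC (3.78%), TCAAGGTCA (0.433%), the direct repeat AGGTCANAGGTCA (0.0538%) or the inverted repeat AGGTCANTGACCT (0.0269%). Matches to the repeats and to TCAAGGTCA include a AGGTCA site, and the absence of these letters says nothing of a factor. The Baat window was 43% G and C without a single CG pair and the Slc27a5 window 53% with 9, whereas Amacr, Acox2, Scp2 and Hsd17b4 had 54% to 66% with 12 to 21 CG pairs. The window of Slc27a2 had 41.7% and 7, and the medians over all windows were 51.7% and 7.

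Among the side chain genes 4 had a difference above 0 and 1 below it, with a median of 0.16. The median over all 3806 genes at a varying probe set was -0.04, and 42% of those genes were above 0. The first step belongs to Slc27a2, a very long chain acyl-CoA synthetase that also activates the sterol intermediates. Its log2 signal was 13.47, 13.28, 13.34 and 13.34 in L. brevis rats 1 to 4, against 13.38, 13.42, 13.44 and 13.30 in control rats 1 to 4. The groups overlapped almost fully, and Slc27a2 was the steadiest of the 7 genes, with an SD within diets of 0.07 that exceeded the SD of 10.1% of varying genes. The difference was -0.03 (SE 0.05, 95% interval -0.15 to 0.09, adjusted p = 0.942 by limma), and +0.05 with the Gapdh 5′ minus 3′ covariate.

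Amacr encodes the racemase that turns the branched side chain to the form the oxidase accepts. It varied most, with 11.19, 10.46, 12.39 and 12.43 log2 in L. brevis rats 1 to 4, against 10.60, 11.03, 11.47 and 11.94 in control rats 1 to 4. L. brevis rats 3 and 4 were above every control rat and L. brevis rat 2 was below every control rat, so the diets overlapped over most of the range. The SD within diets was 0.79, above that of 95% of varying genes. The difference of +0.36 had an SE of 0.55 and a 95% interval from -0.99 to 1.70 (adjusted p = 0.893 by limma), and single rats moved it, from +0.09 without L. brevis rat 4 and +0.10 without L. brevis rat 3 to +0.74 without L. brevis rat 2. Without both L. brevis rats 3 and 4 it was -0.44, and with the Gapdh covariate -0.38.

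Acox2 encodes the branched chain acyl-CoA oxidase, known in the rat as trihydroxycoprostanoyl-CoA oxidase, which introduces the first double bond. Its log2 signal was 11.26, 11.21, 11.52 and 11.47 in L. brevis rats 1 to 4, against 11.21, 11.23, 10.92 and 11.45 in control rats 1 to 4. L. brevis rats 3 and 4 were highest and control rat 3 lowest, and the groups overlapped. The difference was +0.16 (SE 0.13, 95% interval -0.16 to 0.48, adjusted p = 0.738 by limma), and +0.06 without control rat 3. It was +0.03 without L. brevis rats 3 and 4 and -0.07 with the Gapdh covariate.

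Hsd17b4 encodes the D-bifunctional protein, which hydrates that double bond and oxidises the product. Its log2 signal was 12.00, 12.08, 12.12 and 12.14 in L. brevis rats 1 to 4, against 11.91, 12.03, 11.65 and 11.79 in control rats 1 to 4. All L. brevis livers but rat 1 were above every control liver, and rat 1 was below control rat 2 alone, by 0.03. The means were 12.09 ± 0.06 in L. brevis livers and 11.84 ± 0.16 in control livers (SD, n = 4 each). The difference was +0.24 (SE 0.09, 95% interval 0.03 to 0.46), or 1.18-fold higher, with an unadjusted p of 0.0298 and an adjusted p of 0.357 by limma and an exact two-sided permutation p of 0.0571. With the Gapdh covariate it was +0.11 (unadjusted p = 0.362 by limma).

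Scp2 encodes the peroxisomal thiolase that cleaves the side chain and, from the same gene, the sterol carrier protein 2. Its brighter probe set gave 12.62, 12.67, 13.01 and 13.15 log2 in L. brevis rats 1 to 4, against 12.56, 12.77, 12.71 and 12.75 in control rats 1 to 4. L. brevis rats 3 and 4 were above every control rat, and L. brevis rats 1 and 2 were inside the control range. The difference was +0.16 (SE 0.14, 95% interval -0.17 to 0.50, adjusted p = 0.738 by limma), but -0.05 without L. brevis rats 3 and 4 and -0.11 with the Gapdh covariate. The second Scp2 probe set held 11.72 on all 8 arrays and gave no measurable difference, and which of the products of the gene each probe set reads was not resolved here.

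**Figure D4:**
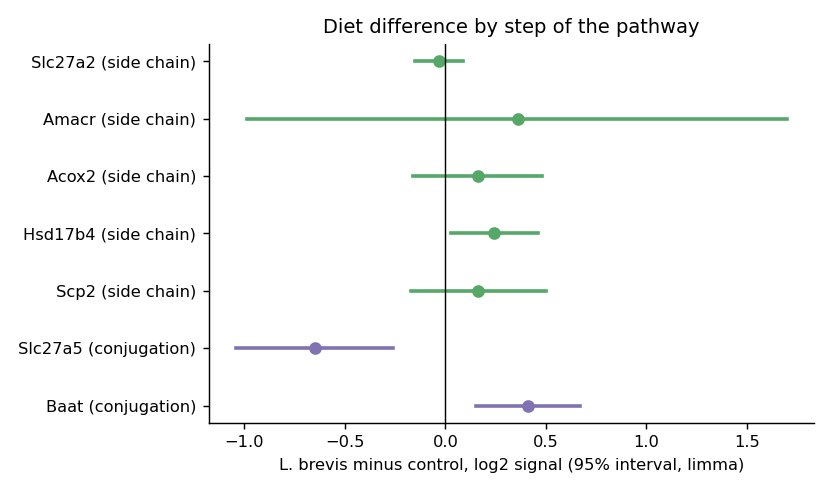
Diet difference (L. brevis minus control, log2 signal, x axis) of the 7 genes from the first side chain step at the top to conjugation at the bottom. Points are differences and lines 95% intervals by limma (n = 4 each). The intervals of Slc27a5 (-1.04 to -0.26), Baat (0.15 to 0.67) and Hsd17b4 (0.03 to 0.46) leave out 0, before any adjustment for the number of probe sets.

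Counted over the set, 0 of the 7 genes passed an adjusted p of 0.05 by limma, against 0.142% of all probe sets and 0.111% of the varying ones. Of the 44 probe sets behind that 0.142% only 7 varied. Most of them are thus ones from which no difference between diets can be read. When the varying probe sets were fitted alone it was again 0 of 7, against 0.0633%. By the fit over all probe sets 3 of the 7 (42.9%) had an unadjusted p under 0.05, against 20.6% of the genes at a varying probe set. The diets did not overlap in 2 of 7 genes (28.6%), against 10.4% of the genes at a varying probe set. The same 2 reached the smallest p of the exact permutation test. With 4 against 4 that p is reached just when groups do not overlap, so it adds nothing to this count. On the higher side the background was 6.91% by unadjusted p and 3.02% by absence of overlap, and on the lower side 13.7% and 7.41%. By size of the difference, Slc27a5 exceeded 92.3% of varying genes, Baat 80.2%, Amacr 74.9% and Hsd17b4 59.4%. With so few genes these shares describe the set and do not set it apart from other genes. L. brevis rats 3 and 4 held the 2 highest of the 8 values for Baat, Amacr, Acox2, Scp2 and Hsd17b4. For Slc27a5 they held the 2 lowest, and Slc27a2 was the exception. The share of all varying genes with such a pattern was not counted. Over varying probe sets these 2 arrays differed least of all same-diet pairs (SD 0.401). Their Gapdh 5′ minus 3′ values were also the highest of the 8 (-0.94 and -0.68).

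**Figure D5:**
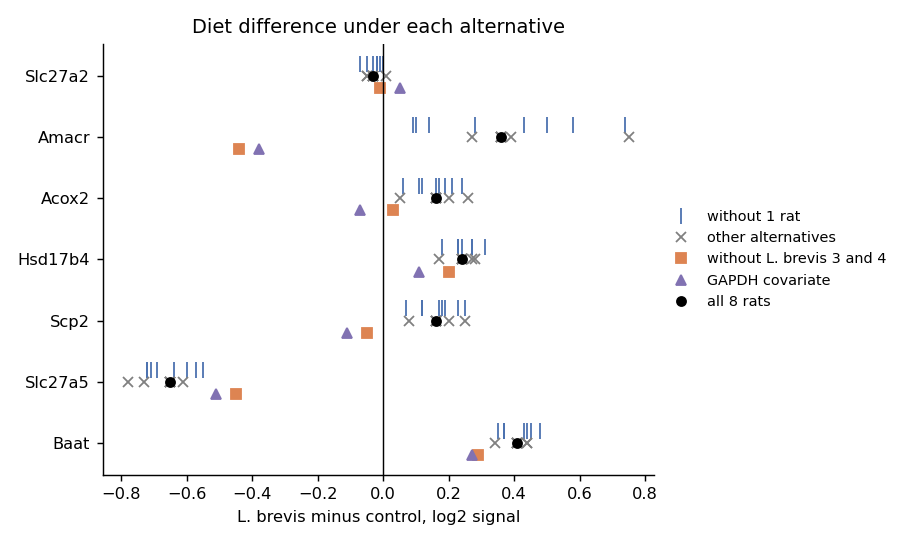
Diet difference (L. brevis minus control, log2 signal, x axis) of each gene with all 8 rats (black), without 1 rat (blue ticks), without L. brevis rats 3 and 4 (orange squares), with the Gapdh 5′ minus 3′ covariate (violet triangles) and under the other alternatives (grey crosses). Slc27a5 stays between -0.78 and -0.45, Baat between 0.27 and 0.48 and Hsd17b4 between 0.11 and 0.31, while Amacr, Acox2, Scp2 and Slc27a2 have values on both sides of 0.

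By the pattern over single rats, the genes most like Slc27a5 among 3805 others were Sult1b1 (Pearson r = 0.978), Erp29 (r = 0.965) and Hpf1 (r = 0.965), each value being taken as its deviation from its own diet mean over 8 arrays. Their differences between diets were +0.14, -0.26 and -0.18. Those most like Baat were Stab2 (r = 0.973), Crip2 (r = 0.956) and Sqstm1 (r = 0.947), with differences of -0.26, -0.20 and -0.08, all opposite in sign to that of Baat. Stab2 is an endothelial marker. With 8 arrays and so many genes such values of r are a description only.

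The steps before the side chain are taken by sterol hydroxylases and ring enzymes. Of 10 measured, 7 varied, 4 higher and 3 lower in L. brevis livers, with a median of 0.01 and 1 at an unadjusted p under 0.05. That gene was Cyp39a1, the 24-hydroxycholesterol hydroxylase, at +0.18 (SE 0.07, unadjusted p = 0.0497 by limma). Cyp7a1, which sets the rate of bile acid synthesis, differed by +0.71 (SE 1.55) and Cyp8b1, which makes the cholic acid ring, by -0.35 (SE 0.65). Cyp27a1, the mitochondrial hydroxylase that starts side chain oxidation, had 12.04, 11.90, 11.68 and 11.58 log2 in L. brevis rats 1 to 4, against 12.28, 12.26, 12.29 and 11.78 in control rats 1 to 4. Its groups overlapped through control rat 4 alone, and its difference was -0.35 (SE 0.16, adjusted p = 0.483 by limma). With the Gapdh covariate the differences were +0.03 for Cyp39a1, -1.63 for Cyp7a1, +0.05 for Cyp8b1 and -0.06 for Cyp27a1, so that Cyp7a1 and Cyp8b1 turned in sign.

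Genes of peroxisomal entry, thiolysis and release had 6 varying members of 8 measured, 3 higher and 3 lower, with a median of 0.15. Nudt7, a peroxisomal hydrolase of coenzyme A and its esters, differed by +0.33 (SE 0.10, unadjusted p = 0.0164 and adjusted p = 0.347 by limma). Abcd3, the peroxisomal transporter of the sterol intermediates, differed by -0.12 (SE 0.19), but by +0.33 with the Gapdh covariate (unadjusted p = 0.0231 by limma). Acot8, a peroxisomal thioesterase, held 7.98 on all arrays. Other enzymes of peroxisomal oxidation had 6 varying members higher and 3 lower of 11 measured, with a median of 0.20. Acox3, a further branched chain acyl-CoA oxidase, differed by +0.34 (SE 0.10, unadjusted p = 0.0122 by limma). Its groups did not overlap (6.83 to 7.12 in L. brevis livers and 6.48 to 6.80 in control livers), but only 0.03 lay between them. These are low signals, close to the array medians of 6.61 to 6.63. Pecr, a peroxisomal enoyl-CoA reductase, differed by +0.39 (SE 0.14, unadjusted p = 0.0352 by limma). With the Gapdh covariate the differences were +0.53 for Nudt7, +0.26 for Acox3 and +0.09 for Pecr. Peroxisome import and assembly genes had 7 varying members of 13 measured, 4 higher and 3 lower with a median of 0.12, and 0 at an unadjusted p under 0.05 by limma. In none of the 10 pathway lists did a varying gene pass the adjusted threshold by limma.

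Relatives of the conjugation enzymes were followed as 2 lists. Acyl-CoA synthetases had 4 varying members higher and 3 lower of 12 measured (median 0.00), and the Slc27a family members Slc27a1, Slc27a3 and Slc27a4 each held 1 value on all arrays. Relatives of Baat and other amino acid conjugating enzymes had 5 varying members of 5 measured, all 5 lower, with a median of -0.44 and 0 at an unadjusted p under 0.05 by limma. Of these 5, Glyat hardly differed (-0.01, SE 0.11), and Acot3 differed by -0.15 (SE 0.39). The median of the list was +0.37 without L. brevis rats 3 and 4 and +0.76 with the Gapdh covariate. That list holds some of the most variable genes seen here. Acot1, a cytosolic acyl-CoA thioesterase named after its values were seen, ran from 4.27 to 12.00 in L. brevis livers and from 5.18 to 11.53 in control livers. In both diets its signal fell in order from rat 1 to rat 4, as did that of Acot2. Acot3, Glyat and Glyatl2 did not fall in that order in both diets. The order was not particular to Acot1 and Acot2. Ehhadh, Pex19 and Decr2, among others, also fell from rat 1 to rat 4 in both diets. Gldc, Shmt2 and Hao1, among others, rose in that order in both. The share of all varying genes that followed the replicate number in this way was not counted. Genes of taurine and glycine supply, the amino acids that Baat uses, had 2 varying members higher and 5 lower of 10 measured (median -0.03), and those of coenzyme A supply 1 higher and 5 lower of 8 measured (median -0.18), both with 0 at an unadjusted p under 0.05 by limma.

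Among the nuclear receptors and other factors known to act on bile acid genes, 12 of 14 measured varied, 6 higher and 6 lower, with a median of 0.01. Nr1h4, the bile acid receptor FXR, for which BAAT and SLC27A5 are known targets in human and rodent liver, had 9.09, 9.32, 8.94 and 8.64 log2 in L. brevis rats 1 to 4, against 9.84, 9.63, 9.42 and 9.28 in control rats 1 to 4. The groups overlapped only where L. brevis rat 2 stood above control rat 4. The difference was -0.54 (SE 0.19, unadjusted p = 0.0257 and adjusted p = 0.355 by limma), and -0.32 with the Gapdh covariate. Its partner Rxra differed by +0.48 (SE 0.18, unadjusted p = 0.0341 by limma), or +0.10 with that covariate. Rxra signal was low, at 6.97 to 7.72 log2 in L. brevis livers and 6.71 to 7.15 in control livers. The array medians were 6.61 to 6.63. Nr0b2, the FXR target SHP, differed by +0.45 (SE 0.37) and Hnf4a by -0.05 (SE 0.07), while Ppara held 6.56 on all arrays. Bile acid transporters had 6 varying members higher and 2 lower of 11 measured (median 0.22). Slc10a1, the transporter that takes conjugated bile acids up from blood, had 12.37 to 12.74 log2 in L. brevis livers and 12.05 to 12.35 in control livers, a difference of +0.28 (SE 0.10, unadjusted p = 0.0351 and adjusted p = 0.385 by limma). With the Gapdh covariate that difference was +0.09 (unadjusted p = 0.474 by limma) and the median of the transporter list 0.01.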

How the data were processed

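Liver RNA of 8 rats was measured on Affymetrix 3′ expression arrays, 4 per diet. Trizol extraction, column purification and 3′ in vitro transcription labelling are given per the labels' protocols. The deposited values are log2 signals per probe set, already normalized by the authors; how they did so is not stated in any source used. Samples of a group are biological replicates per the labels, and no batch is named. The small number of arrays limits precision.

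Of 31099 probe sets 57 Affymetrix controls were left out. Of the rest 20826 had 1 gene symbol, 436 several and 9780 none in the platform annotation, updated through RefSeq gene identifiers. A gene was represented by its brightest probe set with 1 symbol. The diet difference was estimated over the 31042 probe sets in R 4.3.3 with limma 3.58.1 (linear model, eBayes with intensity trend, two-sided, Benjamini-Hochberg, threshold 0.05). In simulated data for this comparison 200 varying probe sets above the median level were shifted. Noise was drawn independently for each probe set and array, without deviations shared between probe sets. The recovered shares may therefore not hold for the real arrays. The fit to 31042 probe sets recovered 14.5% of those shifted by 0.5 log2 and 41.5% of those shifted by 1, with 0 and 4 false calls. The fit to varying probe sets alone recovered 26.5% and 67.0%, with 3 and 6 false calls. Exact permutation tests covered single genes.

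The genes, lists and tests were chosen with earlier results of these data known. Named beside the 7 genes were, per list, up to 4 varying genes at an unadjusted p under 0.05, a fixed set of 9 pathway genes, and the 3 genes most like Slc27a5 and Baat. Single cell type markers, relatives of Baat and the genes named for following the order of the rats were named after their values were seen. Promoter motifs were chosen after the data were seen. Alternatives were leaving out rats, a replicate block, other normalizations and filters, no trend, array weights and a Gapdh 5′ minus 3′ covariate.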

Additional observations from a re-analysis of the deposited data

Results flagged for a closer look

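Outlying rats were looked for in 20 varying genes, the 7 and those named from the pathway lists by the rule above. Cell type markers were not among these genes. With 2 groups of 4 rats each, 3 of the 40 groups had 1 rat far from the other 3 by Dixon's criterion for 4 values. Chance alone meets that criterion in about 1 in 20 groups. None of the 7 side chain and conjugation genes was among them. Cyp7a1 was 8.38 in L. brevis rat 1, against 11.50 to 11.98 in the other L. brevis rats (ratio of gap to range 0.866). That value lay inside the control range, since control rats 1 to 4 had 12.13, 10.32, 6.31 and 11.77. Cyp27a1 was 11.78 in control rat 4, against 12.26 to 12.29 in the other control rats (0.952). Hnf4a was 11.85 in control rat 4, against 11.57 to 11.61 in the other control rats (0.852).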

How the results depend on the processing

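Under 17 alternatives the 7 genes gave 119 values, of which 112 kept their direction and none passed the adjusted threshold by limma. Adjusted p ran from 0.0721 to 0.841 for Slc27a5 and from 0.0721 to 0.901 for Baat, and an unadjusted p under 0.05 held under 16 and 15 of the alternatives. The other 7 values changed sign: without L. brevis rats 3 and 4, Amacr (-0.44) and Scp2 (-0.05). With the Gapdh covariate the sign changed for Amacr (-0.38), Acox2 (-0.07), Scp2 (-0.11) and Slc27a2 (0.05), and with median centring for Slc27a2 (0.01). The number of the 7 with an unadjusted p under 0.05 was 3 of 7, 2 or 3 without 1 rat, but 1 without L. brevis rats 3 and 4 and 0 with the Gapdh covariate.

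Counts over the whole table moved more. Of varying probe sets 7 passed the adjusted threshold. Leaving out 1 rat gave 3 (without L. brevis rat 4) to 49 (without L. brevis rat 1), with 18 without control rat 4. The count was 4 without L. brevis rats 3 and 4, 0 with quantile normalization, 4 with median centring, 4 with varying probe sets alone, 19 with array weights and 1 with the Gapdh covariate. Over all probe sets, those held at 1 value included, it was 44, but 67 to 180 without 1 rat, 180 without L. brevis rats 3 and 4, 0, 4 and 4 in the same order of normalizations and filter, 21 over probe sets above the median level and 77 with array weights. Varying probe sets at an unadjusted p under 0.05 numbered 1450, but 882 (without L. brevis rat 4) to 2276 (without L. brevis rat 1) without 1 rat, 563 without L. brevis rats 3 and 4, 2608 with array weights and 484 with the covariate.

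No label says that the replicate numbers pair the rats. Over varying probe sets the deviations of same-numbered rats had r from 0.08 to 0.38, over 0.1 in 3 of 4 pairs where all 4 were required, so the fit without a block was kept. In 3 of 4 cases an L. brevis array was closest to the control array of its number, a hint of pairing from the data alone. With a replicate block 22 varying and 128 of all probe sets passed, and none of the 7 genes, of which 2 had an unadjusted p under 0.05. These 2 were Slc27a5 (0.0089 by limma) and Baat (0.0422 by limma). Unadjusted p by limma was then 0.0869 for Hsd17b4, 0.0905 for Slc10a1 and 0.108 for Cyp39a1. For other named genes it was smaller than without the block, as for Nr1h4 (0.0085), Rxra (0.00605), Cyp27a1 (0.0266) and Nr0b2 (0.0124). None of these passed the adjusted threshold with the block.

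Of 170 medians of the 10 pathway lists 163 moved by less than the SD between rats, and 21 had the other sign. Without 1 rat the median ran from 0.01 (without L. brevis rat 1) to 0.32 (without L. brevis rat 4) for peroxisomal entry, thiolysis and release. It ran from -0.97 (without L. brevis rat 1 or control rat 4) to -0.09 (without L. brevis rat 4) for relatives of Baat, for bile acid transport from 0.11 (without control rat 1) to 0.28 and for coenzyme A supply from -0.27 to -0.04. It took both signs for the sterol ring steps, the acyl-CoA synthetases, taurine and glycine supply, and nuclear receptors and factors. The medians that moved by more than the SD were peroxisomal entry, thiolysis and release (0.37 without L. brevis rats 3 and 4, 0.43 with the covariate) and coenzyme A supply (0.05 and 0.14). With the covariate alone they were the relatives of Baat (0.76), taurine and glycine supply (-0.38) and nuclear receptors and factors (-0.10). The causes of these moves were not tested. The second Scp2 probe set could not stand in for the first, since it holds 1 value.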
